A study of Mus musculus with 8 samples.

Results

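The genes of oxidative phosphorylation (OXPHOS) were described across cell classes of the aorta, its ascending thoracic stretch, in 3 aged wildtype mice. They were chosen by gene symbol alone: the mitochondrial protein-coding genes, and the nuclear symbols that begin with Nduf, Sdh (a to d), Uqcr, Cox4 to Cox8 or Atp5. This gave 107 of the 32285 genes measured, 94 of them nuclear and 13 on the mitochondrial genome. Symbols of the Ndufaf type name factors that assemble complex I and are not part of it, and Cox7a2l belongs to supercomplexes, so both were kept apart from the subunits. All 13 mitochondrial genes and 93 of the 94 nuclear genes had a UMI (unique molecular identifier, 1 captured molecule) in smooth muscle-like cells.

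The mice were 81, 84 and 88 weeks old, with 1 animal at each age, no young animals and no treatment, so neither age nor any treatment could be compared. The ascending aorta was digested with collagenase and elastase for 60 min at 37 °C, dead cells were depleted, and about 15000 cells were loaded for droplet capture with 3′ counting. Cells of each animal carried 1 of 3 hashtag antibodies, barcoded antibodies that mark an animal before pooling. The 4 gene expression and 4 hashtag libraries were deposited as 1 matrix that does not keep libraries apart.

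Oxidative phosphorylation makes ATP in the inner mitochondrial membrane. Complex I (NADH dehydrogenase) and complex II (succinate dehydrogenase) pass electrons through ubiquinone to complex III, cytochrome c and complex IV (cytochrome c oxidase), which reduces oxygen, and complex V (ATP synthase) uses the proton gradient that complexes I, III and IV build. Complex II is encoded in the nucleus alone, while the other complexes mix subunits of both genomes. Several nuclear subunits of complex IV come as paired isoforms, a widely expressed one and one typical of certain tissues: Cox4i2 of lung and of cells that respond to low oxygen, Cox7a1 and Cox8b of heart, skeletal muscle and brown fat, and Cox6b2 of testis. Ndufa4l2 is a relative of Ndufa4, a subunit of complex IV that was first assigned to complex I, and is known as a gene induced by low oxygen.

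The matrix held 142108011 gene UMIs in 26916 barcodes, with a median of 2975 UMIs per barcode and a median mitochondrial share of 15.9%. Only 12864 barcodes (47.8%) lay under the limit of 15% mitochondrial UMIs. After filters on genes and UMIs, doublet calls and cells with more than 1 hashtag, 10408 cells were kept and gave 24 clusters, made without the OXPHOS genes, the other genes of energy metabolism listed here and ribosomal protein genes. Of these, 9295 cells in 18 clusters were named and 1113 cells in 6 clusters with markers of several lineages were set aside. Classes were named from marker genes and are rebuilt, so they can differ from those of the study. Those that could be tested held 4748 smooth muscle-like, 1037 endothelial-like, 1297 fibroblast-like and 1879 T cell-like cells. The largest T cell-like cluster (862 cells) leads with Rag1, Cd8b1 and Cd4, a thymocyte-like profile. Whether the T cell-like cells belong to the aortic wall was not tested. Clusters of 125 pericyte-like, 96 chondrocyte-like, 51 mesothelial-like, 45 epithelial-like and 17 Schwann-like cells are described only. A single hashtag was carried by 9.84% of smooth muscle-like and 16.5% of fibroblast-like cells but by 89.4% of endothelial-like and 90.6% of T cell-like cells, so the first classes are compared on a small part of their cells. At least 2 UMIs over 10 T cell genes were present in 25.4% of smooth muscle-like, 29.99% of fibroblast-like and 32.8% of pericyte-like cells.

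Levels are UMIs per 1000000 UMIs of a class (CPM). Each molecule is counted once at its 3′ end, so no scaling by length applies. Summed over all nuclear OXPHOS genes, pericyte-like cells held the highest level, 25948 CPM, followed by smooth muscle-like cells at 22961 CPM. In the hashtag sets of the animals of 81, 84 and 88 weeks, the smooth muscle-like sum was 22862, 23941 and 22549 CPM, and the fibroblast-like sum 17954, 16805 and 17404 CPM. Every smooth muscle-like set therefore lay above every fibroblast-like set, by more than the spread within either class (SD 730 and 574 CPM, n = 3). Endothelial-like sets were close to each other at 19248, 18886 and 19337 CPM and lay between those classes. T cell-like sets spread from 19892 to 23601 CPM and overlapped the smooth muscle-like ones, with the highest value in the 81-week set of 34 cells. The sums of chondrocyte-like (17833 CPM) and fibroblast-like cells (17427 CPM over all cells) were neighbours that differed by less than the SD over fibroblast-like sets, and epithelial-like cells had the lowest sum at 15882 CPM.

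The 13 mitochondrial genes followed another order. They took 101252 CPM in T cell-like cells, 94444 CPM in pericyte-like, 82808 CPM in endothelial-like, 76828 CPM in smooth muscle-like and 69544 CPM in fibroblast-like cells. The ratio of mitochondrial to nuclear OXPHOS UMIs was thus lowest in smooth muscle-like cells (3.35) and highest in T cell-like cells (5.01), with 3.64 in pericyte-like, 3.99 in fibroblast-like and 4.34 in endothelial-like cells. The most abundant single transcripts in smooth muscle-like cells were mt-Atp6 (14474 CPM), a subunit of complex V, and mt-Co3 (13803 CPM), a core subunit of complex IV, and the lowest were mt-Atp8 (382 CPM) and mt-Nd6 (206 CPM). The annotated genes ATP8 and ATP6 share 43 bases, ND4L and ND4 share 7 bases, and ND5 and ND6 overlap by 14 bases on opposite strands. Strand use in counting is not given in the sources used here, so reads of such overlapping stretches cannot be told apart.

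**Figure D1:**
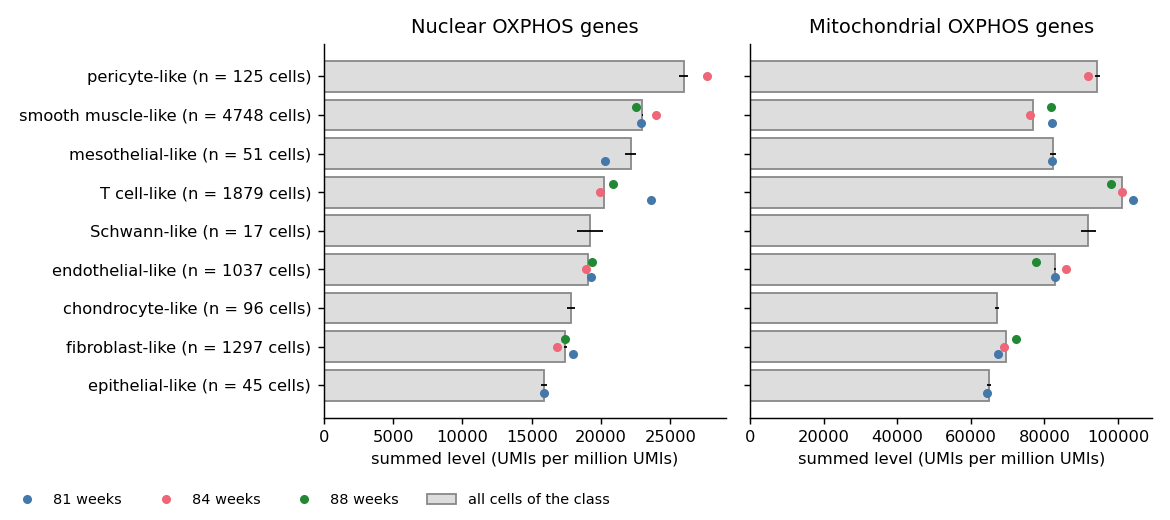
Summed level of the nuclear (left) and mitochondrial (right) OXPHOS genes in each cell class, in CPM; bars are all cells of a class with the 95% exact Poisson interval of the UMI sum, and points are the hashtag sets of at least 10 cells. Pericyte-like cells lead the nuclear sum at 25948 and T cell-like cells the mitochondrial sum at 101252.

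The mitochondrial level depended on the limit that defines a cell. With a limit of 10%, T cell-like cells held 71458 CPM of mitochondrial and 24172 CPM of nuclear OXPHOS UMIs, a ratio of 2.96, below that of smooth muscle-like cells (3.11). With a limit of 25% and new clusters, the T cell-like ratio was 8.06 and that of smooth muscle-like cells 3.63. The order of the classes by mitochondrial level, and the place of T cell-like cells by nuclear level, therefore moved with the limit. The cells kept changed as well: 518 T cell-like cells under 10%, 1879 under 15% and 4779 under 25%. The part of this change of cells in the levels was not tested. Under the 3 limits the nuclear sum stayed between 22567 and 23123 CPM in smooth muscle-like cells and 17158 and 17749 CPM in fibroblast-like cells. In endothelial-like cells it stayed between 18789 and 19071 CPM. The limit acts on these same genes, so the mitochondrial level in the cells kept is bounded by it.

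**Figure D2:**
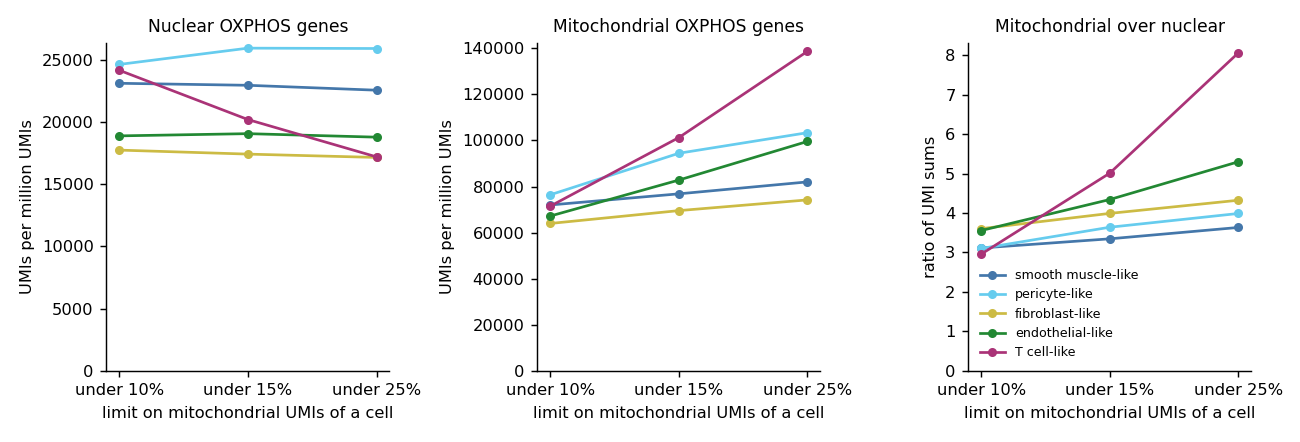
Nuclear sum, mitochondrial sum (both in CPM) and their ratio in 5 cell classes under limits of 10%, 15% and 25% mitochondrial UMIs per cell. The T cell-like ratio runs from 2.96 to 8.06, while that of smooth muscle-like cells runs from 3.11 to 3.63.

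Single nuclear genes varied less than the isoforms among them. Of the 94 nuclear genes, 84 reached 50 CPM in at least 1 of the 6 classes with at least 90 cells, and their median fold between the highest and the lowest class was 1.78. The highest level was in pericyte-like cells for 52 of the 84 genes, in T cell-like cells for 15, in smooth muscle-like cells for 10 and in endothelial-like cells for 7, and in none in fibroblast-like or chondrocyte-like cells. The same count over all genes was not made, so 52 of 84 cannot be read as particular to OXPHOS genes. Pericyte-like cells held 1004728 UMIs in all, against 56670612 in smooth muscle-like cells, so their levels carry more counting error. The fold passed 2 in 23 genes, led by 3 isoform genes: Ndufa4l2 (668-fold), Cox4i2 (344-fold) and Cox8b (13.8-fold). The lowest levels of Ndufa4l2 and Cox4i2 were 0.757 and 0.649 CPM in T cell-like cells. There they had 6 and 5 UMIs in the hashtag sets and 1 each in cells with no hashtag, so the size of these folds is uncertain. Next were Sdhc, a membrane anchor of complex II (4.62-fold), and the complex I subunits Ndufb9 (3.06-fold) and Ndufs7 (2.88-fold). These folds are between the extremes of a ranking and are given as descriptions with no test.

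By complex, the pericyte-like sums exceeded the smooth muscle-like ones in complex I (8321 and 7800 CPM), complex III (2583 and 2272 CPM), complex IV (7434 and 6118 CPM) and complex V (6606 and 5865 CPM). The pericyte-like cluster also held 30680 CPM over the smooth muscle marker list, against 40590 CPM in smooth muscle-like cells, and 5329 CPM over the pericyte list. With 9, 12 and 4 cells in the hashtag sets it allowed no test. All levels are relative to the other RNA of the same cells.

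Ndufa4l2 (ENSMUSG00000040280, GRCm38 chr10:127509274-127517154) had the widest range of all members. It stood at 506 CPM in pericyte-like cells, 81.2 CPM in fibroblast-like, 10.2 CPM in endothelial-like, 0.935 CPM in smooth muscle-like and 0.757 CPM in T cell-like cells. Of all UMIs of Ndufa4 and Ndufa4l2 together, Ndufa4l2 held 53.7% in pericyte-like cells (95% exact binomial interval 50.5 to 56.9, counting error only, as for all intervals here), 16.9% in fibroblast-like (15.9 to 18.0) and 0.163% in smooth muscle-like cells. In the 84-week pericyte-like set of 12 cells the share was 39.6%, and that set held 1265 CPM over the T cell marker list, against 233 CPM in the whole class. Without cells that hold T cell RNA the pericyte-like share was 57.6%. In cells thinned to 1000 UMIs, an Ndufa4l2 UMI was found in 37.6% of pericyte-like, 7.71% of fibroblast-like, 0.0842% of smooth muscle-like and 0.0532% of T cell-like cells. Before thinning the shares were 78.4%, 31.6%, 0.969% and 0.319%, at median depths of 7075, 7576, 11191 and 3773 UMIs.

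Within fibroblast-like cells the Ndufa4l2 level differed between their 2 clusters. The cluster that leads with Serpinf1, Hhip and Dio2 held 161 CPM, and its Ndufa4l2 share was 28.1%. The cluster that leads with Pi16, Clec3b and Dpep1 held 29.9 CPM, and its share was 7.12%. The pericyte marker list stood at 973 CPM in the former and 378 CPM in the latter, and its part in the result was not tested. In the fibroblast-like sets of 81, 84 and 88 weeks the share was 8.54%, 15.2% and 20.2%. Each is 1 animal, so no order by age can be read from these values.

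Cox4i2 (ENSMUSG00000009876, GRCm38 chr2:152753916-152765039) shared the pericyte-like cells with Ndufa4l2 but not the fibroblast-like ones. It held 19.8% of COX4 UMIs in pericyte-like cells (17.5 to 22.2, 223 CPM) and 20.8% in chondrocyte-like cells (17.9 to 23.8, 181 CPM), against 1.25% in smooth muscle-like, 1.27% in fibroblast-like and 0.0926% in T cell-like cells. In chondrocyte-like cells Ndufa4l2 held 3.01% of NDUFA4 UMIs. After thinning to 1000 UMIs a Cox4i2 UMI was found in 22.4% of pericyte-like, 14.6% of chondrocyte-like and 1.31% of smooth muscle-like cells and in 0 of 1879 T cell-like cells, where a floor of 3 cells is a share of 0.160% with a UMI at that depth. Before thinning the shares were 63.2%, 57.3%, 11.8% and 0.319%. Of the 8 genes of the pericyte list, the chondrocyte-like cluster had 0 UMIs of Vtn and Steap4. The part of the other genes of that list in its Cox4i2 share was not tested.

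Over all 24 clusters, those set aside included, and 7599 genes of at least 50 CPM in a cluster, the genes most like Cox4i2 by Pearson correlation of log2(CPM + 10) were Daam2 (0.860), Ednra (0.844), Nr4a2 (0.838), Dlk1 (0.801) and Mamdc2 (0.794). Those most like Ndufa4l2 were Rem1 (0.870), Steap4 (0.856), Ednra (0.847), Sgip1 (0.846) and Tbx2 (0.843). Ednra, an endothelin receptor, appears for both. The clusters share 1 pool of libraries and differ in depth, so these values only describe likeness of pattern.

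Cox8b and Cox7a1 were concentrated in a different vascular cell. Cox8b (ENSMUSG00000025488, GRCm38 chr7:140898942-140900446) held 11.2% of COX8 UMIs (10.1 to 12.4) in the endothelial-like cluster that leads with Gpihbp1, Fabp4 and Cd36, called capillary-type here. In the sets of 81, 84 and 88 weeks its share there was 10.9%, 12.4% and 10.3%. In the other endothelial-like cluster, led by Vwf and Bmp4, it was 1.16%, and in smooth muscle-like cells 0.646%. The leading genes of that other cluster also include Mmrn1, Lyve1 and Stab1. Finer clusters kept 14 cells led by Mmrn1, Ccl21a and Lyve1 apart from 89 led by Vwf and Bmp4. They also set apart 124 capillary-type cells led by Sema3g and Rbp7. Isoform shares were not taken in these finer clusters. Cox7a1 (ENSMUSG00000074218, GRCm38 chr7:30184171-30186030) held 5.80% of COX7A UMIs in the capillary-type cluster and 0.847% in the other.

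The remaining isoforms showed smaller shifts. Cox6b2 held 12.5% of COX6B UMIs in mesothelial-like cells (38 UMIs), 6.51% in fibroblast-like, 5.96% in T cell-like and 1.08% in smooth muscle-like cells. Of the genes for subunit c of complex V, Atp5g1, Atp5g2 and Atp5g3 held 33.7%, 40.3% and 26.0% of UMIs in smooth muscle-like cells, and 26.2%, 45.1% and 28.7% in endothelial-like cells. Cox6a2, the muscle isoform of COX6A, had 27 UMIs in all smooth muscle-like cells (0.188% of COX6A UMIs), and Cox7b2 had 4 UMIs. Cox8c had 0 of 38393 COX8 UMIs there, which allows a share of up to 0.00781%.

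**Figure D3:**
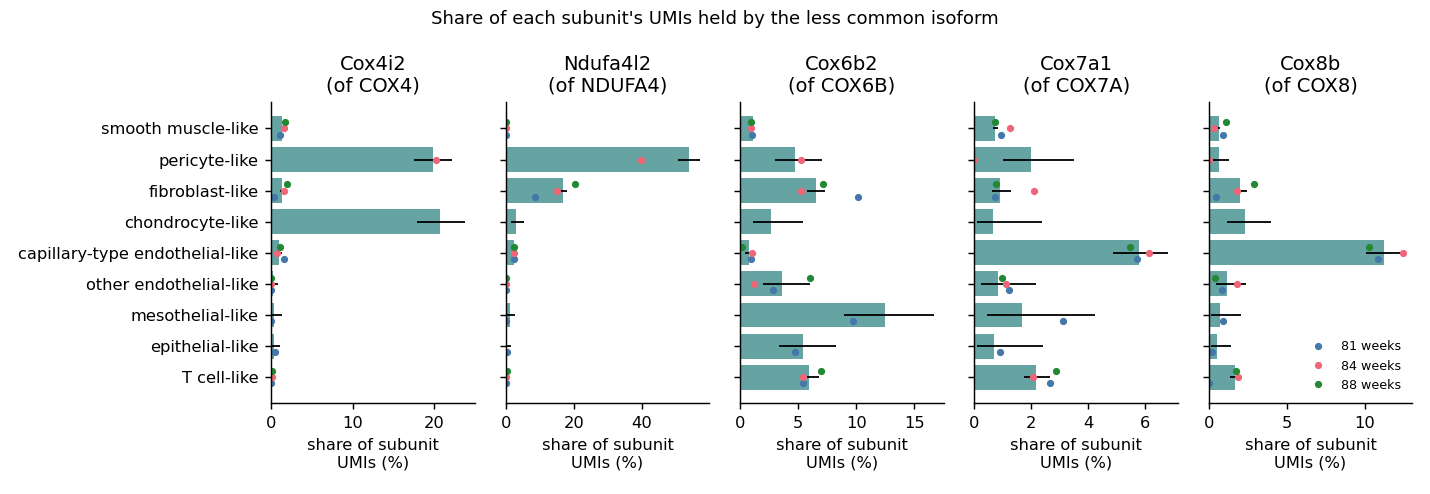
Share of the UMIs of a subunit that came from its less common isoform, in percent, for Cox4i2, Ndufa4l2, Cox6b2, Cox7a1 and Cox8b; bars are all cells of a class with the 95% exact binomial interval and points are hashtag sets of at least 10 cells. Ndufa4l2 reaches 53.7% in pericyte-like cells and Cox8b 11.2% in capillary-type endothelial-like cells.

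Classes were compared on UMIs summed per class and hashtag set, with edgeR's quasi-likelihood test and the animal as a block, and p-values were adjusted by Benjamini-Hochberg over every gene in the fit. A gene passed at an adjusted p under 0.05, and was called when its change was also at least 2-fold. Fold changes are after TMM scaling and are on the log2 scale. Each p-value rests on class differences within 3 animals and on a variance that edgeR estimates partly from all genes. A small p-value therefore does not measure the spread of that gene between animals alone. The comparisons share sums (smooth muscle-like sums serve in 2 of them, endothelial-like sums in 2), so they are not independent of each other. These genes did not enter the clustering, but genes that vary with them did, so a difference between clusters is not independent of the grouping.

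Smooth muscle-like cells, the contractile cells of the wall, had more RNA of most OXPHOS genes than fibroblast-like cells. Of 89 nuclear genes tested, 60 passed as higher and 2 as lower (over all 9634 genes tested, 20.3% passed as higher and 19.4% as lower), with a median log2 fold change of 0.51 against 0.00 for all genes. Complex I gave 27 of 37 genes higher, complex III 7 of 8, complex IV 10 of 15, complex V 12 of 17 and complex II 1 of 4. At 2-fold, 3 genes were called higher and 2 lower, smaller shares than the 10.8% and 13.2% of all genes. All 13 mitochondrial genes passed as higher, by 0.27 to 0.45, and none was called at 2-fold.

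Cox6c, a small subunit of complex IV, stood at 1026, 1068 and 983 CPM in the smooth muscle-like sets of 81, 84 and 88 weeks. In the fibroblast-like sets it stood at 568, 478 and 556 CPM, so the groups did not overlap, and its log2 fold change was 1.13 ± 0.10 (SE; edgeR adjusted p = 2.6e-09). Ndufb3, an accessory subunit of complex I, stood at 261, 292 and 276 CPM against 151, 134 and 137 CPM. It was higher in 3 of 3 sets by 1.17 ± 0.13 (edgeR adjusted p = 5.9e-08). Ndufb1-ps, named with a pseudogene suffix in the annotation, was higher by 1.08 ± 0.12 in 3 of 3 sets (edgeR adjusted p = 6.5e-08). Cox7c of complex IV (0.99), Ndufa12 of complex I (0.99) and Uqcr11 of complex III (0.84) passed just under 2-fold.

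The 2 genes called lower were isoforms. Ndufa4l2 stood at 1.21, 0 and 0 CPM in the smooth muscle-like sets and at 36.5, 64.9 and 91.5 CPM in the fibroblast-like sets. This rests on 2 UMIs against 121, a ratio of 196 with a 95% counting interval of 53.2 to 1639 (edgeR adjusted p = 5.2e-11). Its partner Ndufa4 went the other way, at 571, 609 and 576 CPM against 391, 363 and 361 CPM, a log2 fold change of 0.84 ± 0.10 (edgeR adjusted p = 4.8e-07). Cox6b2 stood at 3.63, 3.67 and 3.58 CPM against 36.5, 17.4 and 22.9 CPM, a change of -2.52 ± 0.40 (edgeR adjusted p = 1.6e-05). The sums of T cell markers were 57.5 to 133 CPM in smooth muscle-like and 172 to 1271 CPM in fibroblast-like sets. Without cells holding T cell RNA, 31 nuclear genes passed as higher and 0 mitochondrial ones, and DESeq2 passed 30 and 1. With a stricter hashtag limit 25 nuclear genes passed as higher, 0 as lower and 1 was called, and 9 were called without the 81-week set. In the cells with no hashtag, 62 of the 62 nuclear genes and all 13 mitochondrial genes that passed had the same sign, with no test.

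Among the other genes of energy metabolism, more than 50% of those of glycolysis, the citric acid cycle and ADP/ATP exchange passed as higher in smooth muscle-like cells by edgeR. The electron carrier list passed that share only with the member Cox7a2l counted, and the other lists did not reach it. DESeq2 passed 9 genes of glycolysis, 3 of the citric acid cycle, 4 of ADP/ATP exchange and 2 of electron carriers as higher. Of 16 glycolysis genes 13 passed as higher and 0 as lower, 9 of them called, with a median of 1.15. Pkm, the last kinase of glycolysis, rose by 1.22, and Tpi1, triose phosphate isomerase, by 1.33. Hk2, a hexokinase that binds mitochondria, had 114 UMIs against 2, a ratio of 17.6 (4.75 to 147). Of 16 genes of the citric acid cycle and pyruvate dehydrogenase 9 passed as higher and 0 as lower, with Suclg2, a subunit of succinyl-CoA ligase (1.47), among 3 called. Of 7 genes of ADP/ATP exchange and uncoupling 6 passed as higher and 1 as lower, the uncoupling protein Ucp2 (-2.52). Of 9 electron carriers and supercomplex factors 5, Cox7a2l among them, passed as higher and 1 as lower, with Higd1a, a factor of complex IV, at 1.64. Of 18 assembly genes of complexes III and IV 4 passed as higher and 1 as lower, and of 9 biogenesis genes tested 0 passed by edgeR (2 higher and 2 lower at an unadjusted p under 0.05, 0 with DESeq2). Of 5 hypoxia-inducible genes 2 were called higher (Bnip3 1.18 and Ero1l 1.09) and 3 lower (Vegfa -2.54, Adm -1.88 and Pdk1 -1.58), while Ndufa4l2, not in that list, was lower as given above.

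**Figure D4:**
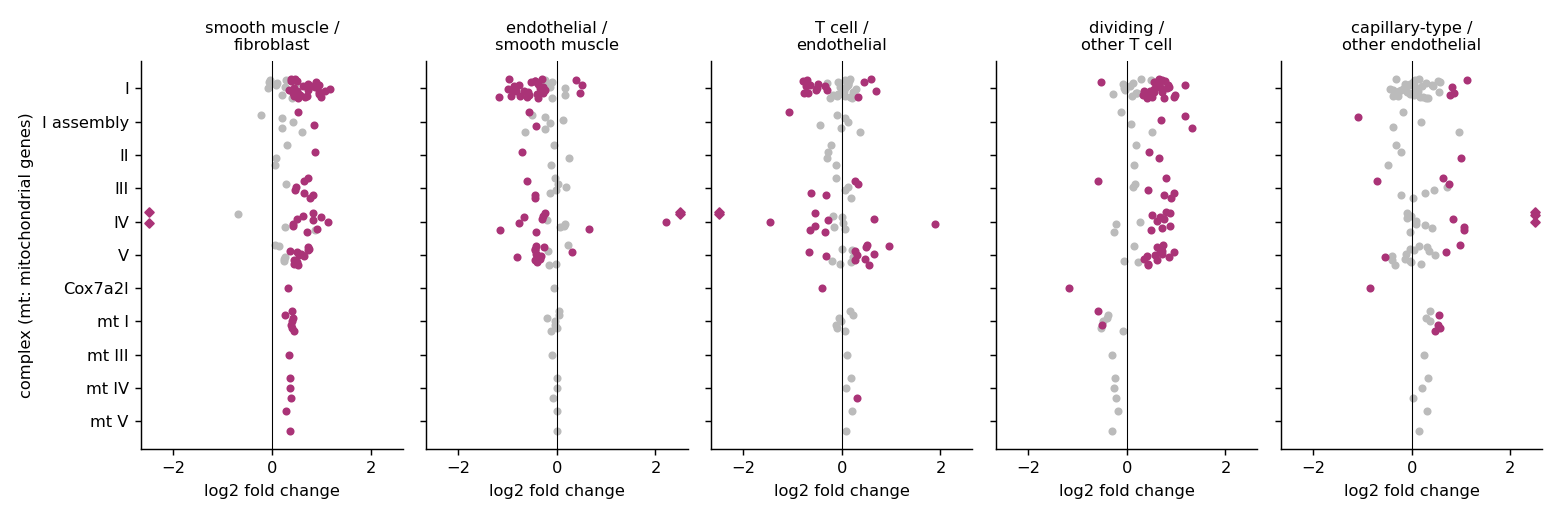
Log2 fold change of every OXPHOS gene tested in 5 comparisons, arranged by complex, with the supercomplex factor Cox7a2l and the mitochondrial (mt) genes apart; coloured points passed an adjusted p under 0.05, grey points did not, and diamonds lie beyond the axis. In the smooth muscle-like against fibroblast-like panel all 13 mitochondrial genes passed, at 0.27 to 0.45.

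Endothelial-like cells, which line vessels, had less RNA of many nuclear OXPHOS genes than smooth muscle-like cells but not of mitochondrial ones. Of 90 nuclear genes tested 8 passed as higher and 49 as lower (29.7% and 29% of all 10308 genes tested), with a median of -0.31 against 0.01 over all genes. Lower genes made up 24 of 37 in complex I, 12 of 17 in complex V, 7 of 15 in complex IV, 3 of 8 in complex III and 1 of 4 in complex II. At 2-fold, 3 genes were called higher and 3 lower, smaller shares than the 17.1% and 16.6% of all genes. By edgeR 0 of 13 mitochondrial genes passed, with log2 fold changes from -0.21 to 0.04 (1 at an unadjusted p under 0.05, as lower, and 0 with DESeq2).

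Ndufa11, a membrane subunit of complex I, stood at 139, 150 and 143 CPM in the endothelial-like sets of 81, 84 and 88 weeks. In the smooth muscle-like sets it stood at 309, 314 and 314 CPM, and its log2 fold change was -1.19 ± 0.10 (edgeR adjusted p = 2.3e-08). Ndufb3 stood at 132, 148 and 155 CPM against 261, 292 and 276 CPM, a change of -1.0 ± 0.10 (edgeR adjusted p = 2.4e-07). Both were lower in 3 of 3 sets without overlap. Cox4i2 was called lower at -1.15 ± 0.30 (edgeR adjusted p = 0.0034), at 9.98, 5.42 and 6.99 CPM against 11.50, 16.1 and 17.4 CPM. It was no longer past the threshold with DESeq2 (-1.11, adjusted p = 0.106) or without the 84-week set (-0.91, adjusted p = 0.0632).

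The genes called higher in endothelial-like cells were Cox8b (3.48 ± 0.27, edgeR adjusted p = 6.1e-09), Cox7a1 (2.21 ± 0.27, edgeR adjusted p = 1.6e-06) and Ndufa4l2, with 56 UMIs against 2, a ratio of 32.8 (8.65 to 277; edgeR adjusted p = 9.4e-06). Cox5a, which sits on the matrix side of complex IV, passed at 0.65. With the limit at 25% mitochondrial UMIs, Cox8b stood at 1.33 (adjusted p = 0.112) and Cox7a1 at 0.03 (adjusted p = 0.977). There the 88-week smooth muscle-like sum held 107 CPM of Cox8b, 117 CPM of Cox7a1, 79.1 CPM of the brown fat gene Ucp1 and 44.1 CPM of the heart muscle gene Myh6, while Cox8b stood at 5.16 and 5.79 CPM in the sums of the other animals. DESeq2 passed 5 nuclear genes as higher and 26 as lower, and the stricter hashtag limit passed 29 as lower. In cells with no hashtag, 56 of the 57 nuclear genes that passed had the same sign, and 12 of 13 mitochondrial genes were higher in endothelial-like cells (median 0.22). The mitochondrial lower count was 4 without the 84-week set and 5 with the limit at 10%.

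Glycolysis genes were again the list with most members past the test: 2 of 16 passed as higher and 12 as lower, 7 of them called. Of the citric acid cycle list 1 of 16 passed as higher and 8 as lower by edgeR, and 0 and 3 with DESeq2. Slc25a4, the ADP/ATP carrier typical of heart and muscle, stood at 210, 201 and 223 CPM against 648, 676 and 632 CPM, a log2 fold change of -1.70 ± 0.10 (edgeR adjusted p = 1.6e-10). Its relative Slc25a5 was higher by 0.31. Ucp2 stood at 87.5, 110 and 74.8 CPM against 3.03, 4.59 and 4.92 CPM, higher by 4.32 ± 0.21 (edgeR adjusted p = 9.5e-12).

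T cell-like and endothelial-like cells differed in some OXPHOS genes in each direction, but in smaller shares of them than of all genes. Of 89 nuclear genes tested, 17 passed as higher in T cell-like cells and 25 as lower (34.6% and 34.7% of all 10447 genes tested), with a median of -0.03 against 0.04 over all genes. Complex V leaned to T cell-like cells with 9 of 17 genes higher and 2 lower, among them Atp5h (0.65), Atp5a1 (0.55) and Atp5mpl (0.95). Complex IV leaned to endothelial-like cells with 8 of 15 lower and 2 higher (median -0.29). In complex I 11 of 37 were lower and 4 higher, with a median of -0.05. At 2-fold 1 gene was called higher and 4 lower, smaller shares than the 21.7% and 25.6% of all genes.

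The gene called higher was Cox6b2, at 18.7, 19.0 and 25.2 CPM in T cell-like against 5.38, 4.44 and 5.92 CPM in endothelial-like sets (1.89 ± 0.35, edgeR adjusted p = 2.1e-07). Those called lower were Cox8b (-2.93), Cox7a1 (-1.46), Ndufa4l2 (6 UMIs against 56) and Ndufaf8, an assembly factor of complex I (-1.08 ± 0.18, edgeR adjusted p = 1.4e-08). Among mitochondrial genes mt-Co1, the catalytic subunit of complex IV, passed. It stood at 10986, 11945 and 11589 CPM against 8072, 8305 and 7972 CPM, and after TMM scaling its log2 fold change was 0.30 ± 0.10 (edgeR adjusted p = 0.0059). The median mitochondrial share was 12.01% in T cell-like and 9.61% in endothelial-like cells, and its part in the result was not tested. Counts moved with the mitochondrial limit: 37 nuclear genes passed as higher and 16 as lower under 10%, and 9 and 42 under 25%. Without the 88-week set 9 passed as higher, DESeq2 passed 5, and mt-Co1 was lost with both (0.26, adjusted p = 0.305; 0.19, adjusted p = 0.316).

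Of 11 genes of mitochondrial biogenesis and transcription 8 passed as higher in T cell-like cells and 0 as lower (0 also at an unadjusted p under 0.05 and with DESeq2). The 5 called were the coactivator Ppargc1b (2.89, 94 UMIs against 8), the mitochondrial helicase Twnk (2.08), the transcription factor Nrf1 (1.46), Lrpprc (1.38), which binds mitochondrial mRNA, and Ssbp1 (1.15), which binds mitochondrial single-stranded DNA. The related coactivator Ppargc1a, too low to be tested, went the other way with 2 UMIs against 17, a ratio of 14.1 (3.33 to 125) in favour of endothelial-like cells. Ucp2 was higher still, by 1.72, than in endothelial-like cells, and Vdac1, a channel of the outer membrane, by 1.30.

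Dividing T cell-like clusters, set apart by a score over Mki67, Top2a and similar genes, lead with histone genes, Top2a and Mki67 or with the DNA replication genes Hells, Dtl and Mcm3. They had more RNA of most nuclear OXPHOS genes than the other T cell-like clusters, which lead with Rag1, Cd8b1 and Cd4 or with Cd5 and Il7r, while 0 of 13 mitochondrial genes passed as higher by edgeR (0 at an unadjusted p under 0.05, 0 with DESeq2). Of 85 nuclear genes tested 58 passed as higher and 3 as lower (25.4% and 22.8% of all 7722 genes tested), with a median of 0.55 against -0.00 over all genes. The higher genes were 25 of 37 in complex I, 14 of 17 in complex V, 9 of 12 in complex IV, 5 of 8 in complex III, 2 of 4 in complex II and 3 of 6 assembly factors. At 2-fold 3 were called higher and 1 lower, smaller shares than the 13.3% and 7.63% of all genes. The nuclear sum was 26344, 21311 and 23349 CPM in the dividing sets of 81, 84 and 88 weeks against 16533, 17414 and 16993 CPM in the others, with no overlap. The mitochondrial sum went the other way, also with no overlap, at 95435, 90631 and 84417 CPM against 126729, 119134 and 119772 CPM.

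Ndufc1, an accessory subunit of complex I, stood at 294, 270 and 321 CPM against 156, 130 and 127 CPM (1.18 ± 0.14, edgeR adjusted p = 5.6e-16). Ndufaf2, an assembly factor of complex I, stood at 86.6, 44.1 and 53.3 CPM against 22.3, 22.2 and 10.4 CPM (1.33 ± 0.25, edgeR adjusted p = 4.7e-07), but at 27.2 against 36.2 CPM in cells with no hashtag. It was no longer past the threshold with the limit at 10% (1.21, edgeR adjusted p = 0.065) or finer clusters (0.42, edgeR adjusted p = 0.113). Finer clusters counted a DNA-replicating cluster of 241 cells, led by Hells and Uhrf1, among the others. Ndufaf7, a methyltransferase of complex I assembly, was called at 1.17 with 97 UMIs against 26. The ATP synthase subunit c genes rose unequally, Atp5g1 by 0.85, Atp5g3 by 0.58 and Atp5g2 by 0.41.

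The gene called lower was Cox7a2l, also known as SCAFI, which joins complexes III and IV in supercomplexes. It stood at 165, 188 and 223 CPM in the dividing sets and at 245, 503 and 466 CPM in the others, a log2 fold change of -1.18 ± 0.15 (edgeR adjusted p = 7.7e-15). The groups did not overlap, although the 81-week set of 16 other cells was closest. Uqcrh, the hinge subunit of complex III (-0.59), and Ndufs4 of complex I (-0.53) passed as lower. All 13 mitochondrial genes had negative log2 fold changes and 2 passed, mt-Nd6 (-0.59 ± 0.14, edgeR adjusted p = 0.00011) and mt-Nd3 (-0.50 ± 0.21, edgeR adjusted p = 0.039). Without the block for the animal, or with the library size taken from nuclear genes, 6 of them passed.

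Dividing cells held a median of 6184 UMIs and a mitochondrial share of 10.2%, the others 2915.5 UMIs and 12.9%. The T cell marker list stood at 6580 CPM in the former and 13065 CPM in the latter, and the part of these in the result was not tested. The count of higher nuclear genes was 8 without the 88-week set and 35 without the 84-week set, 30 with DESeq2 or with the limit at 10%, and 25 with finer clusters. In that last setting the DNA-replicating cluster led by Hells, Uhrf1 and Pclaf (241 cells) counted among the others, so the groups compared differ. The same signs held in cells with no hashtag for 56 of the 61 nuclear genes that passed. Beside the OXPHOS genes, Cycs, cytochrome c, rose by 1.02 and Atpif1, the inhibitor of ATP synthase, by 1.17. Of 9 electron carriers and supercomplex factors tested 6 passed as higher and 1, Cox7a2l, as lower.

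Capillary-type endothelial-like cells had more RNA of a small group of isoform genes than the other endothelial-like cluster, led by Cox8b and Cox7a1, while counts over all OXPHOS genes were near or under the share of all genes. Of 86 nuclear genes tested 15 passed as higher and 4 as lower (14% and 15.1% of all 7873 genes tested), with a median of 0.08 against 0.01 over all genes. Complex IV gave 6 of its 14 genes higher, complex I 4 of 37, complex III 2 of 8, complex V 2 of 17 and complex II 1 of 4. At 2-fold 6 were called higher and 1 lower, smaller shares than the 10.5% and 11.6% of all genes, and 5 of the 6 are genes of complex IV or its isoform family.

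Cox8b stood at 67.3, 82.8 and 69.3 CPM in the capillary-type sets of 81, 84 and 88 weeks. In the other endothelial-like sets it stood at 6.30, 8.78 and 2.24 CPM, so every capillary-type set was higher by 3.89 ± 0.46 on the log2 scale in the fit (324 UMIs against 4; edgeR adjusted p = 1.1e-05). Cox7a1 stood at 27.1, 30.6 and 28.3 CPM against 6.30, 4.39 and 4.49 CPM, a change of 2.56 ± 0.54 (126 UMIs against 4; edgeR adjusted p = 0.0018). Their widely expressed partners did not pass: Cox8a was at -0.01 (adjusted p = 0.966) and Cox7a2 at 0.08 (adjusted p = 0.777), both by edgeR.

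Ndufa4l2 had 56 UMIs against 0, which makes it at least 3.57-fold higher against a floor of 3 UMIs over the group (edgeR adjusted p = 0.0043). In cells with no hashtag the order was not seen, with 0 Ndufa4l2 UMIs in capillary-type cells and 2 in the others. Cox4i2, too low to be tested, had 37 against 0 UMIs in the sets, 2.36-fold higher against that floor, with an interval that starts at 1.82. In cells with no hashtag, however, it likewise had 0 against 2 UMIs. Cox5a stood at 303, 342 and 352 CPM against 214, 154 and 137 CPM (1.06 ± 0.21, edgeR adjusted p = 0.0013). Cox6a1 stood at 293, 333 and 326 CPM against 195, 132 and 150 CPM (1.05 ± 0.21, edgeR adjusted p = 0.0011). Ndufs8, an iron-sulfur subunit of complex I, was called at 1.12 ± 0.26 (edgeR adjusted p = 0.0042) but stood at 72.6 against 79.3 CPM in cells with no hashtag, and DESeq2 gave an adjusted p of 0.0593.

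**Figure D5:**
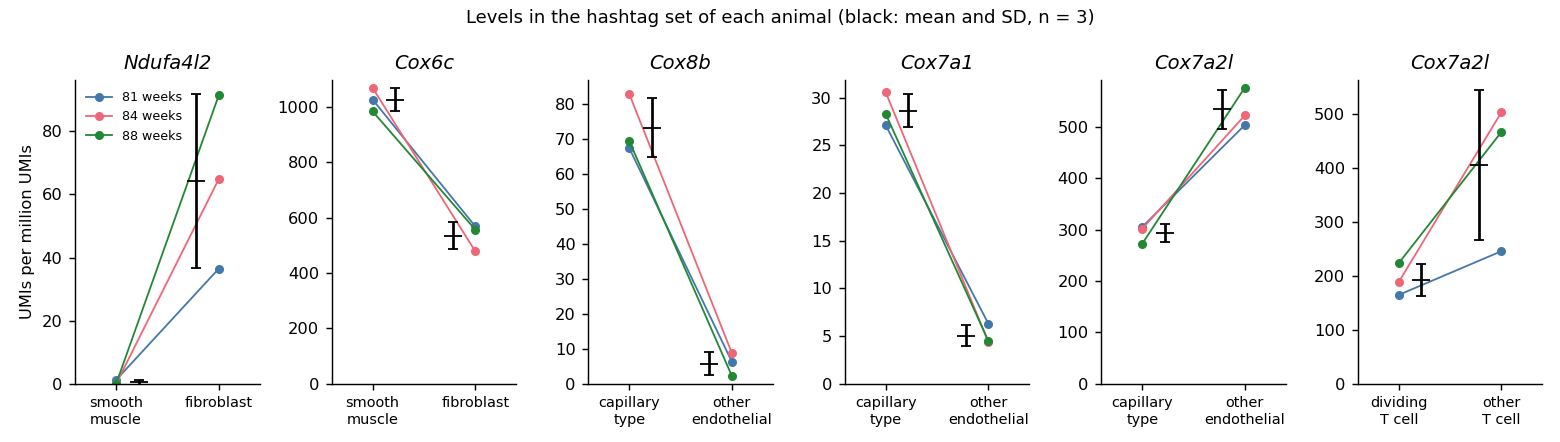
Level of 5 genes in the hashtag set of each animal, in CPM, for the pair of cell groups named under each panel; lines join the sums of 1 animal and black marks give the mean and SD (n = 3). Cox8b runs from 67.3 to 82.8 in capillary-type cells and from 2.24 to 8.78 in the others, and Cox7a2l is lower in capillary-type and in dividing T cell-like cells in every animal.

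The promoters of the complex IV genes called higher in capillary-type cells are shown because these members were called in the same comparison. Whether they are regulated together was not tested. Each is given as the 250 bases before the RefSeq start in GRCm38.p6, 5′ to 3′ on the strand of the gene. That of Ndufa4l2 was not in the table used. Capitals mark matches on either strand to NRF1 (GCGCA, any base, then GCGC), GABP (CCGGAAG), ERR (AAGGTCA), a muscle E-box (CAGCTG) or the core of hypoxia response elements (ACGTG).
Cox8b, chr7:140900447-140900696, minus strand: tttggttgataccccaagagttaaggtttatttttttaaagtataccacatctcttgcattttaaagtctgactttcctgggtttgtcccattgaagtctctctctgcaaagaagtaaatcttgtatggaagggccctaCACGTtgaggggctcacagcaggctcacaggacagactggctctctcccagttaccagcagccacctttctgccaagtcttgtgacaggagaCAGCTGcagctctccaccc
Cox7a1, chr7:30183921-30184170, plus strand: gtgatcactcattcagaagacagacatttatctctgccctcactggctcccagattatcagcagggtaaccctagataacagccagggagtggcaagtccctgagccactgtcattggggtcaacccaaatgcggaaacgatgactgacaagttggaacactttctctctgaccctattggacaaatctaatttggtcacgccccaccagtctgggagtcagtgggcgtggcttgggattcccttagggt
Cox5a, chr9:57520982-57521231, plus strand: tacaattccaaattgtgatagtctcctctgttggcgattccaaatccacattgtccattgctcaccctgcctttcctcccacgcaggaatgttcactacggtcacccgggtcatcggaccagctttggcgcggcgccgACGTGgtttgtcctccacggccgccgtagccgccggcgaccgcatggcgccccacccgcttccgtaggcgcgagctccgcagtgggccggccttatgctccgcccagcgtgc
Cox6a1, chr5:115348959-115349208, minus strand: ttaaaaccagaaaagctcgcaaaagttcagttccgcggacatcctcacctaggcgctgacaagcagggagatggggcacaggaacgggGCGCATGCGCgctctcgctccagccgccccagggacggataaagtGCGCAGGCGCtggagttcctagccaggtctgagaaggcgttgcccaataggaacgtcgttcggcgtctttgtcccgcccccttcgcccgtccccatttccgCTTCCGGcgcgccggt

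The Cox8b stretch held CAGCTG starting 19 bases before the start and the ACGTG core 111 bases before it, and that of Cox5a held the core 112 bases before its start. The Cox6a1 stretch held 2 NRF1 matches, 162 and 117 bases before the start, and a GABP match at 16 bases. None of these matches overlap, and none of the 5 motifs was found in the Cox7a1 stretch. Among 80 promoters of 75 members, 18.8% held NRF1, 17.5% GABP, 6.25% ERR, 7.50% CAGCTG and 18.8% ACGTG. Among all 32851 promoters of the same length the shares were 3.74%, 6.91%, 4.08%, 13% and 16.6%. A match describes letters and not binding.

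Genes passing as lower in capillary-type cells were Ndufaf7 (-1.08, called, 55 UMIs against 23), Cox7a2l, Uqcrh (-0.71) and Atp5g1 (-0.54). Cox7a2l stood at 305, 302 and 272 CPM against 504, 522 and 576 CPM, a change of -0.85 ± 0.18 (edgeR adjusted p = 0.0017). Of the mitochondrial genes 4 passed as higher, all of complex I: mt-Nd2 (0.56), mt-Nd5 (0.55), mt-Nd3 (0.53) and mt-Nd1 (0.46). None of these 4 passed with DESeq2, without the 84-week set or with the limit at 10%. The higher nuclear count was 5 with DESeq2, 7 without the 88-week set and 25 without a filter on low counts.

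Markers of other cells moved with this comparison. The adipocyte list held 65.0 CPM in capillary-type cells (50.9 to 87.8 over sets, Lep at 0) and 2.87 CPM in the others (4 of 5 genes at 0). It was made up mainly of Ucp1 at 50.9 CPM against 2.87 CPM, with Adipoq at 5.40 CPM and Cidec at 7.12 CPM. The cardiomyocyte list held 12.95 CPM against 5.73 CPM, with Myh6, Myh7 and Nppa at 0 in both. The pericyte list held 351 CPM (338 to 392) against 109 CPM (25.2 to 126, with Vtn and Steap4 at 0), the erythroid list 20306 CPM against 2883 CPM and the fibroblast list 364 CPM against 2193 CPM. Ndufa4l2 stood at 506 CPM in the pericyte-like cluster, Cox8b at 7.96 CPM. The part of these lists in the levels of Cox8b, Cox7a1, Ndufa4l2 and Cox4i2 was not tested. In cells thinned to 1000 UMIs, Cox8b was found in 7.49% of capillary-type cells and 0 of 103 others, where a floor of 3 cells is a share of 2.91% with a UMI at that depth, and in 1.22% of T cell-like cells. Before thinning the shares were 25.2%, 5.83% and 4.20% at median depths of 3924.5, 7398 and 3773 UMIs.

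Other genes linked to respiration followed in part. Cycs stood at 129, 138 and 183 CPM in capillary-type sets against 50.4, 57.1 and 33.6 CPM, higher by 1.82 ± 0.28 (edgeR adjusted p = 0.000129). Ucp2 rose by 2.40 and Slc25a5 by 1.17. By edgeR 0 of 16 genes of the citric acid cycle list passed (1 at an unadjusted p under 0.05, 0 with DESeq2), and 0 of 7 biogenesis genes (0 at an unadjusted p under 0.05, 0 with DESeq2).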

How the data were processed

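Single-cell 3′ gene expression and hashtag libraries of 1 pool of cells from 3 mice were analysed. The authors deposited raw UMI counts as 1 matrix, made with Cell Ranger 6.0.1 per the file headers; the submitters' processing notes name Cell Ranger, Seurat 4.0.5 and mm10, and strand use is not given in the sources used here. Barcodes with at least 500 genes, at least 1000 UMIs and under 15% mitochondrial UMIs were kept, 11301 of 21057 that passed the first limits. Hashtags were called with HTODemux (Seurat 5.3.0, quantile 0.99), which left out 533 barcodes with more than 1 hashtag, and Scrublet marked 360 doublets (3.19%), also left out. Cells were clustered without OXPHOS, other energy metabolism and ribosomal protein genes (scanpy 1.11.5, Leiden resolution 0.8, 2000 variable genes, 30 components, 15 neighbours) and named from marker lists; 6 clusters with markers of more than 1 lineage were set aside after the data were seen. UMIs were summed per class and hashtag set of at least 10 cells and tested with edgeR 4.0.16 (quasi-likelihood F test, TMM, filterByExpr, Benjamini-Hochberg adjustment over all genes tested). The animal was a block, because same-numbered sums come from the same animal by its hashtag. The steps were tested on simulated data. Depending on the comparison, 9% to 28% of 1.5-fold changes and 92% to 100% of 4-fold changes were recovered. A gene that did not pass is therefore not shown to be unchanged.

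Counts were taken at an adjusted p under 0.05, and calls also required 2-fold. The genes named were the mitochondrial genes, the isoforms, and in each comparison up to 4 called nuclear genes in each direction with the same sign in every set and at least 50 CPM in the higher class; others named, such as Cox7c, Uqcrh and the genes of the metabolic lists, were chosen after their values were seen. Members and lists were chosen with earlier results of these data known. Metabolic lists covered glycolysis, the citric acid cycle, ADP/ATP exchange and uncoupling, electron carriers and supercomplex factors, assembly of complexes III and IV, biogenesis, and hypoxia-inducible genes. Alternatives were DESeq2 1.42.0, no filter on low counts, no block, library sizes from nuclear genes, each set left out, limits of 10% and 25% mitochondrial UMIs, hashtag UMIs at least 2 times the limit, no cells with T cell RNA, doublets kept, Leiden resolution 1.6 and, added after seeing the data, mixed clusters kept. Promoters came from RefSeq (GRCm38.p6). Depth was a median of 4104 UMIs in endothelial-like, 3773 in T cell-like, 7576 in fibroblast-like and 11191 in smooth muscle-like cells.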

Additional observations from a re-analysis of the deposited data

How the results depend on the processing

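The single genes followed were the called nuclear genes named by the rule and, where they passed, a fixed list of others. That list held Cox4i2, Ndufa4l2, Cox6b2, Cox7a1, Cox8b, Cox7a2l, mt-Co1, mt-Nd1, mt-Nd2, mt-Nd3, mt-Nd5 and mt-Nd6. Among these, 494 of 564 alternative values over 41 results kept direction and side of the threshold, 70 lost the threshold and 0 reversed. Other isoforms and mitochondrial genes were not followed singly. Counts moved more, and the cause was not tested unless the setting itself left fewer cells or sets. "Passed" below means an adjusted p under 0.05.

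For smooth muscle-like against fibroblast-like cells, 60 nuclear genes passed as higher, and 30 with DESeq2, 25 with the stricter hashtag limit and 31 without cells holding T cell RNA. The 2 lower genes became 0 with the stricter hashtag limit. The 5 genes called at 2-fold became 10 without a filter on low counts, 1 with the stricter hashtag limit, 3 without T cell RNA, 3 with mixed clusters kept and 4 to 9 with 1 set left out (9 without the 81-week set). The 13 mitochondrial genes became 1 with DESeq2 and 0 without T cell RNA. Cox7a2l, higher by 0.32, lost the threshold without the 84-week set (adjusted p = 0.199), without the 88-week set (adjusted p = 0.146) and with DESeq2 (adjusted p = 0.395).

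For endothelial-like against smooth muscle-like cells, DESeq2 gave 5 higher and 26 lower nuclear genes in place of 8 and 49, and the stricter hashtag limit 29 lower. Mitochondrial genes passing as lower went from 0 to 1 without a filter, 1 with no replicate block, 5 under 10% mitochondrial UMIs, 4 with the stricter hashtag limit, 1 at Leiden resolution 1.6 and 0 to 4 with 1 set left out (4 without the 84-week set).

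For T cell-like against endothelial-like cells, 17 higher nuclear genes became 5 with DESeq2, 37 under 10%, 9 under 25%, 11 with the stricter hashtag limit and, with 1 set left out, 9 to 16 (9 without the 88-week set). The 25 lower genes became 16 under 10% and 42 under 25%, and the 5 called became 3 without T cell RNA. Mitochondrial genes passing as higher, 1 in the first place, were 0 with DESeq2, 3 without a filter, 0 under 10%, 6 under 25%, 2 with mixed clusters kept and 0 to 5 with 1 set left out, and 3 passed as lower under 10%.

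For dividing against other T cell-like cells, 58 higher nuclear genes became 30 with DESeq2, 30 under 10%, 25 at Leiden resolution 1.6 and 8 to 59 with 1 set left out. At resolution 1.6 the DNA-replicating cluster led by Hells, Uhrf1 and Pclaf (241 cells) counted among the others, so all counts there compare different groups. The 3 lower genes became 1 with DESeq2, under 10%, with the stricter hashtag limit and at resolution 1.6, and 1 to 6 with 1 set left out. The 4 called became 8 with DESeq2, 8 without a filter, 0 at resolution 1.6 and 5 to 9 with 1 set left out. The 2 lower mitochondrial genes became 1 without a filter, 6 with no replicate block, 6 with nuclear library sizes, 0 under 10%, 13 under 25%, 0 with the stricter hashtag limit, 4 at resolution 1.6 and 0 to 8 with 1 set left out.

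For capillary-type against other endothelial-like cells, 15 higher nuclear genes became 5 with DESeq2, 25 without a filter and 7 to 17 with 1 set left out. The 4 lower became 1 with DESeq2, 2 under 10%, 2 under 25%, 2 with doublets kept and 2 to 3 with 1 set left out. The 7 called became 12 without a filter and 4 to 10 with 1 set left out. The 4 higher mitochondrial genes became 0 with DESeq2, 9 without a filter, 0 under 10%, 7 under 25%, 1 without T cell RNA and 0 to 9 with 1 set left out. The replicate block moved no other count by more than 1.5 times.

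Relative to smooth muscle-like cells, the mitochondrial level of endothelial-like cells was 1.08 times, 0.933 under 10% and 1.21 under 25%. The nuclear level of pericyte-like cells was 1.13 times, 1.07 under 10%, 1.15 under 25% and 1.08 in cells with 1 hashtag, and their mitochondrial level 1.23 times, 1.06, 1.26 and 1.14, with 1.25 in cells with no hashtag. The nuclear level of T cell-like cells was 0.880 times, 1.05 under 10% and 0.762 under 25%, and their mitochondrial level 1.32 times, 0.993, 1.69 and, in cells with no hashtag, 1.45. The pericyte-like Ndufa4l2 share of 53.7% was 57.6% without T cell RNA. Depth limits the sets of few cells most: 16 and 18 T cell-like cells and 19 to 33 other endothelial-like cells per set.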

Other observations

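Cox7a2l and Uqcrh, chosen after their values were seen, passed as lower both in dividing T cell-like cells and in capillary-type endothelial-like cells. These comparisons share no sums of cells. Cox7a2l changed by -1.18 in the former and -0.85 in the latter, and Uqcrh by -0.59 and -0.71, on the log2 scale. In the comparison of smooth muscle-like with fibroblast-like cells both passed as higher, Uqcrh by 0.65 and Cox7a2l by 0.32.

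Higd1b, a relative of the complex IV factor Higd1a, had 44 UMIs in capillary-type and 0 in the other endothelial-like sets, at least 2.80-fold higher against a floor of 3 UMIs over the group, and it was among the leading genes of the pericyte-like cluster. Of 5 hypoxia-inducible genes tested between capillary-type and other endothelial-like cells, 0 passed as higher by edgeR (1 at an unadjusted p under 0.05, 0 with DESeq2). The growth factor Vegfa passed as lower (-3.10, edgeR adjusted p = 0.000148), and the median of the 5 was 0.18. Ndufa4l2, known to be induced by low oxygen, was higher in the capillary-type hashtag sets but not in cells with no hashtag. The part of oxygen in these levels was not tested.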
